A study of Rattus norvegicus with 36 samples.

Results

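The genes of the unfolded protein response and the integrated stress response were followed in CG-4, a rat cell line with the features of oligodendrocyte progenitors. Their 41 names were taken as a list for their part in these responses, with earlier results of these data known. Of these, 37 had a transcript cluster (the set of array probes that reports a gene) annotated to that gene alone, out of 18901 clusters measured. By role they were 9 of 10 stress transcription factors and feedback genes, 9 of 9 amino acid and one-carbon genes, 2 of 4 stress sensors and Xbp1, 13 of 14 chaperones and folding enzymes of the endoplasmic reticulum (ER), and 4 of 4 genes of ER-associated degradation. Sesn2, Ern1, Atf6 and Creld2 were not analysed here.

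RNA was hybridised to Affymetrix rat exon arrays in 6 groups of 3 arrays, each labelled a biological replicate. Cells were transiently transfected with small interfering RNA (siRNA) against QKI, with siRNA against hnRNP A1, or with a non-silencing siRNA, the control of both. A stable line carried a short hairpin RNA (shRNA) against QKI, and another stable line carried a non-silencing shRNA as its control. The last group was untreated and carried neither siRNA nor shRNA. QKI is an RNA-binding protein known for its part in myelin RNA processing, and hnRNP A1 is a splicing factor. All cells were grown in medium conditioned by B104 cells, and transfection used lipofectamine. The labels name a single stable line for each shRNA, so knockdown and line cannot be told apart in comparisons of the stable lines. They do not say whether a stable line was a single clone. No group received lipofectamine without an siRNA, so reagent and siRNA cannot be told apart in comparisons with untreated cells.

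The unfolded protein response is set off when unfolded protein accumulates in the ER. The sensor kinase PERK (gene Eif2ak3) phosphorylates the initiation factor eIF2, which lowers protein synthesis while translation of ATF4 increases, and ATF4 then induces genes of amino acid supply and the factor CHOP (gene Ddit3). The sensor IRE1 (gene Ern1) splices Xbp1 mRNA, and XBP1 together with ATF6 induces chaperones and the machinery that removes misfolded protein. Other kinases, among them the one that senses amino acid shortage, also act on eIF2 and ATF4, and that shared branch is called the integrated stress response. Oligodendrocytes make large amounts of myelin membrane, and both responses are much studied in them. The arrays measured RNA, so neither eIF2 phosphorylation nor ATF4 translation was seen.

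The promoters of these genes are shown first because they carry the DNA elements through which the response is known to act in mammalian cells. RefSeq promoter windows of the GRCr8 assembly were found for 35 of the 41 genes. They ran from 250 bases before to 50 bases after the start site of each transcript. The ER stress element, bound by ATF6 together with NF-Y, was searched on both strands as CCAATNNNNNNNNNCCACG. It stood in the windows of 7 of the 35 genes (20%), against 21 of 27457 genes with a window (0.0765%), and 6 of those 7 genes were ER chaperones or folding enzymes, with Creld2, which was not analysed here, among them. The amino acid response element, bound by ATF4 with a C/EBP partner, was searched as TGATGNAA and stood in 4 of 35 genes (11.4%), against 4.16% of all genes. The UPR element TGACGTGG stood in Hyou1 (2.86% of the 35), against 0.681% of all genes. The short motif CCACG, which lies inside the ER stress element and, on the other strand, inside the UPR element, was in 82.9% of the 35 genes and 34.1% of all genes. The stretches below are the matches before the start site in measured genes, with up to 20 bases on either side, cut at that site. They run in the direction of the gene, 5′ to 3′, with the element in capitals. Where it matched on the opposite strand the capitals read as its reverse complement. The first 7 hold the ER stress element.
Xbp1, chr14:84604538-84604596, plus strand: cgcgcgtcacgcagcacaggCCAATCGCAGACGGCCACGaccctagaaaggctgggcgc
Hspa5, chr3:38452953-38453011, plus strand: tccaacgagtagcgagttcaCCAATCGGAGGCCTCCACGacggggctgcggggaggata
Hsp90b1, chr7:23012431-23012489, minus strand: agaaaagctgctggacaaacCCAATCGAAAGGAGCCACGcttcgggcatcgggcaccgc
Hsp90b1, chr7:23012327-23012385, minus strand: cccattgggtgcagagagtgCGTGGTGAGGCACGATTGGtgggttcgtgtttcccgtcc
Dnajc3, chr15:102432514-102432572, plus strand: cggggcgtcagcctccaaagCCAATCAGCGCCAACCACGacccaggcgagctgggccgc
Calr, chr19:40213117-40213173, plus strand: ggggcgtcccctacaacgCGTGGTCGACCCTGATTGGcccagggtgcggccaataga
Canx, chr10:35158049-35158107, minus strand: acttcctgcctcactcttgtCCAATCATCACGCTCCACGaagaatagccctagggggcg
The UPR element of Hyou1 and the amino acid response elements of Chac1, Nupr1, Trib3 and Herpud1 follow.
Hyou1, chr8:53602671-53602718, plus strand: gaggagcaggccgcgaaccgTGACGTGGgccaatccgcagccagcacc
Chac1, chr3:126795944-126795991, plus strand: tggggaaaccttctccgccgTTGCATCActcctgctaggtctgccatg
Nupr1, chr1:190645929-190645976, minus strand: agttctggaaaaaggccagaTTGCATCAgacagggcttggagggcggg
Trib3, chr3:161275534-161275574, minus strand: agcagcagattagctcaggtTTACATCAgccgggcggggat
Herpud1, chr19:10614864-10614911, minus strand: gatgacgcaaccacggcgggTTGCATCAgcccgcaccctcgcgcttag
Hsp90b1 held the ER stress element at 2 places. None of the 9 amino acid and one-carbon genes held an amino acid response element in these windows, and the window of Sdf2l1 held none of the 3 full elements. A match is a description of letters, not a measured binding site. The genes were listed for their part in these responses, so the shares describe the list and are no test of it.

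Values are log2 signal as the authors normalised it, so a difference of 1 is a 2-fold difference. Clusters rest on different probes, so a gene was compared with itself across arrays and not with other genes. Differences are given with their standard error (SE) from a fit across all clusters with limma, and a gene was called where its Benjamini-Hochberg adjusted p over the 18901 clusters was under 0.05.

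The targeted genes were read first as a check of the labels. Qki was 9.99, 10.02 and 9.67 in QKI siRNA cells, against 11.47, 11.39 and 11.14 in non-silencing siRNA cells. Qki was 10.65, 10.35 and 11.14 in the QKI shRNA line, against 10.90, 11.01 and 10.99 in the non-silencing shRNA line. The array labelled QKI shRNA 3 therefore lay above all of its controls and went against its label. Hnrnpa1 was 7.90, 7.85 and 7.65 in hnRNP A1 siRNA cells, against 8.60, 8.47 and 8.44 in non-silencing siRNA cells. In the other groups Hnrnpa1 was 8.27, 8.38 and 7.85 (QKI siRNA), 8.11, 8.25 and 8.44 (QKI shRNA) and 8.09, 8.31 and 7.79 (non-silencing shRNA). Untreated cells had 8.67, 8.50 and 7.94. Array 3 of QKI siRNA and of non-silencing shRNA thus lay within the range of the hnRNP A1 siRNA arrays. Qki was 11.85, 11.63 and 10.84 in untreated cells and 11.09, 11.09 and 10.98 in hnRNP A1 siRNA cells. The array labelled QKI shRNA 3 and untreated array 3 also stood apart from their own groups (mean correlation with the other arrays of the group 0.960 and 0.970), as did QKI siRNA array 3 (0.964), and 7 of the 18 arrays were closest to an array of another group. Results are given with and without the array labelled QKI shRNA 3 and untreated array 3 together, a pair chosen after seeing the data. Without QKI siRNA array 3 alone, the counts of called members given below became 0 for QKI siRNA against non-silencing siRNA, 2 against untreated cells, 3 for the difference between the QKI knockdowns and 16 for the 6 groups together. Markers of oligodendrocyte progenitors were present, with a mean over 7 genes between 8.15 and 8.91 in the 6 groups. The means of 8 microglial and 6 fibroblast markers were between 3.53 and 3.69 and between 3.74 and 4.05, around the arrays' median signal of 3.77 to 4.18. Other lists lay above that signal. The means ran from 4.67 to 5.22 for 7 astrocyte, 4.78 to 5.07 for 8 neuronal and 4.69 to 5.04 for 6 Schwann cell markers.

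Across the 6 groups together, 14 of the 37 genes differed (limma F test), where 9.92% of all clusters did. ER chaperones and folding enzymes made up most of them: Hspa5, Hyou1, Dnajc3, Sdf2l1, Manf, Calr, Pdia4 and Pdia6, 8 of the 13 measured. The others were the factors Ddit3, Atf3 and Cebpb (3 of 9), Xbp1 (1 of 2) and the degradation genes Herpud1 and Syvn1 (2 of 4). None of the 9 amino acid and one-carbon genes was called, with adjusted p in the F test from 0.0601 for Phgdh to 0.683 for Mthfd2. Most members lay in the upper part of the signal range, and of the 9451 clusters at or above the median cluster mean, which hold 35 of the 37 genes, 18.9% were called. Without the array labelled QKI shRNA 3 and untreated array 3 the count was 21 of 37, against 18.1% of all clusters. Of the amino acid and one-carbon genes, Psat1, Psph, Shmt2 and Slc7a5 were then called (adjusted p in the F test 0.0096, 0.0469, 0.0067 and 0.0299). The others of that role ran from 0.0529 for Mthfd2 to 0.0951 for Asns. All 9 genes of that role were lowest on the array labelled QKI shRNA 3 and highest on untreated array 3 within their groups. Leaving out those arrays therefore narrows their spread, so the added calls describe that dependence and are no separate test. The share among brighter clusters was not taken in that setting.

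**Figure D1:**
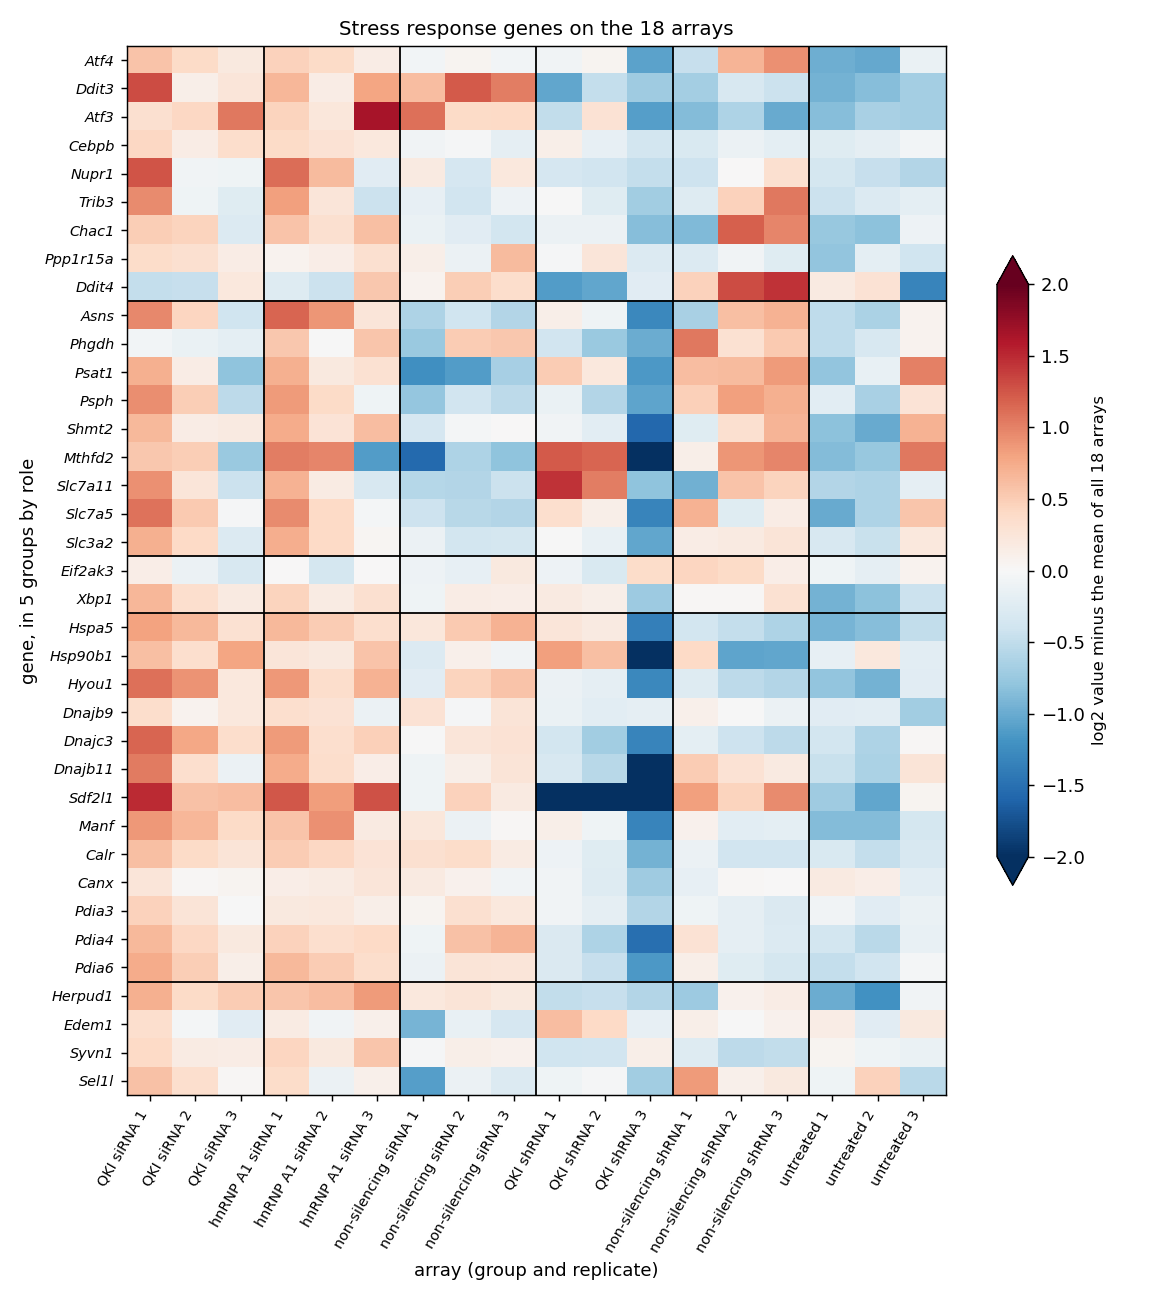
Each row is 1 of the 37 genes and each column 1 of the 18 arrays; colour gives the log2 value minus that gene's mean over all arrays, with lines between roles and between groups. The array labelled QKI shRNA 3 is blue for most amino acid genes and chaperones, Sdf2l1 is dark blue on all 3 QKI shRNA arrays, and untreated array 3 is redder than its 2 partners for amino acid genes.

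The stable QKI knockdown, so called by its label although Qki overlapped its control there, was set against the non-silencing shRNA line. Sdf2l1, Dnajb11, Phgdh, Psph and Ddit4 fell, 5 of the 37 genes, where 6.90% of all clusters were called lower; no member rose, where 3.38% of clusters did. Among the 9451 brighter clusters 13.4% were called lower, so the members' count was near that of clusters of like signal. With quantile normalization the shares of clusters were 5.37% lower and 5.19% higher, with 4 members lower, and with each array centred on its median they were 5.75% and 1.98%, also with 4. The chaperone gene Sdf2l1 moved most of the 5, by 8.64-fold as measured. Most chaperones, the other factors of the ATF4 branch and the genes of ER-associated degradation were not called. The median difference of the 37 genes was -0.37 and that of all clusters 0.01.

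Sdf2l1 encodes a soluble ER protein that works with the chaperone BiP and the co-chaperone encoded by Dnajb11. Sdf2l1 was 4.21, 4.40 and 3.69 in the QKI shRNA line, against 7.30, 6.91 and 7.41 in the non-silencing shRNA line. All 3 QKI shRNA arrays lay more than 2 log2 units below every control array, and near their own arrays' median signal of 3.97, 4.08 and 3.91. A signal above background was not shown there, so the fold is to be read as a lower bound. The difference was -3.11 ± 0.29 (SE; limma adjusted p = 8.71e-06). At the exon level all 5 probe sets of Sdf2l1 were lower, by -4.22 to -1.38.

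Sdf2l1 also fell below untreated cells, the only member called in that comparison. Untreated cells had 5.76, 5.43 and 6.53, and the QKI shRNA line differed from them by -1.81 ± 0.29 (limma adjusted p = 0.0033), where 1.25% of clusters were called lower. The level in the non-silencing shRNA line lay above untreated cells, by 1.30 ± 0.29 (limma adjusted p = 0.025). The low level therefore held against either control, while its size depended on which was used.

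Dnajb11, the co-chaperone that assists BiP, was 7.95, 7.72 and 6.19 in the QKI shRNA line, against 8.78, 8.55 and 8.45 in the non-silencing shRNA line. These groups did not overlap, but the array labelled QKI shRNA 3 lay far below its 2 partners. Untreated cells had 7.82, 7.64 and 8.53, which overlapped the QKI shRNA line, and no call was made against them. The difference between the lines was -1.31 ± 0.38 (limma adjusted p = 0.0383) over all arrays. Without the array labelled QKI shRNA 3 it was -0.76 (adjusted p = 0.134). The call was also lost without non-silencing shRNA array 1, 2 or 3 (adjusted p = 0.118, 0.0878 and 0.0792), and narrowly without QKI siRNA array 2 or non-silencing siRNA array 2 or 3 (adjusted p from 0.0503 to 0.0512).

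Phgdh encodes the first enzyme of serine synthesis from glucose. Phgdh was 5.85, 5.50 and 5.24 in the QKI shRNA line, against 7.29, 6.54 and 6.75 in the non-silencing shRNA line. The difference was -1.33 ± 0.30 (limma adjusted p = 0.0081). Psph encodes the last enzyme of that pathway and was 6.56, 6.11 and 5.65 in the QKI shRNA line, against 7.17, 7.51 and 7.40 in the non-silencing shRNA line. The difference was -1.26 ± 0.34 (limma adjusted p = 0.0246). For neither gene did the QKI shRNA and non-silencing shRNA arrays overlap. Untreated cells had 5.73, 5.91 and 6.31 for Phgdh and 6.49, 6.05 and 6.97 for Psph, overlapping the QKI shRNA line for both. Every non-silencing shRNA array lay above every untreated array for both genes, without a call. Both falls were thus called against the non-silencing shRNA line only. The call of Psph was lost without the array labelled QKI shRNA 3 (-1.03, adjusted p = 0.0895), without QKI shRNA array 2 (adjusted p = 0.0725) and without non-silencing shRNA array 2 (adjusted p = 0.0845) or 3 (adjusted p = 0.0766).

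Ddit4 encodes REDD1, a stress-induced inhibitor of the growth kinase complex mTORC1. Ddit4 was 7.36, 7.44 and 8.24 in the QKI shRNA line, against 8.93, 9.78 and 9.92 in the non-silencing shRNA line. Here the array labelled QKI shRNA 3 was the highest of its group, and the groups still did not overlap. The difference was -1.86 ± 0.40 (limma adjusted p = 0.00616). Ddit4 was 8.65, 8.77 and 7.15 in untreated cells, where array 3 lay below its 2 partners and below every QKI shRNA array.

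Without the 2 arrays that stood apart, Sdf2l1 (-2.91), Ddit4 (-2.14) and Phgdh (-1.19) kept their calls in the stable knockdown and Psph and Dnajb11 did not. Leaving out non-silencing shRNA array 2 or 3 alone also left those 3 calls. Hspa5 (0.70 ± 0.17, limma adjusted p = 0.0114) and Hsp90b1 (1.28 ± 0.33, adjusted p = 0.0194) were then called higher. In that setting 8.77% of clusters were called lower and 4.30% higher. Hspa5 encodes BiP, the main ER chaperone of the Hsp70 family, and was 11.12, 11.06 and 9.51 in the QKI shRNA line, against 10.51, 10.39 and 10.25 in the non-silencing shRNA line. Hsp90b1 encodes the chaperone GRP94 and was 10.85, 10.63 and 8.02 in the QKI shRNA line, against 10.43, 8.97 and 8.99 in the non-silencing shRNA line. For both, 2 QKI shRNA arrays lay above every control array and the array labelled QKI shRNA 3 lay below every control array.

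The sensors and first factors were not called in the stable knockdown. Eif2ak3 was 6.98, 6.78 and 7.44 in the QKI shRNA line, against 7.51, 7.47 and 7.22 in the non-silencing shRNA line, and the groups overlapped. Xbp1 was 9.47, 9.41 and 8.57, against 9.32, 9.32 and 9.60 in the control line. Atf4 was 9.39, 9.51 and 8.40, against 9.01, 10.15 and 10.38, and Ddit3 was 4.66, 5.22 and 4.99, against 5.01, 5.38 and 5.26. The differences of these 4 genes were -0.33 ± 0.18 for Eif2ak3, -0.26 ± 0.21 for Xbp1, -0.74 ± 0.33 for Atf4 and -0.26 ± 0.27 for Ddit3 (limma adjusted p from 0.218 to 0.724). Over all 37 genes, 10 had all QKI shRNA arrays below all control arrays, where 13.5% of clusters and 22.3% of the brighter clusters did.

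Markers of cell state moved with this comparison. Of 8 measured markers of differentiating oligodendrocytes, 4 were lower in the QKI shRNA line and none was higher. Mbp was 4.97, 4.62 and 5.52 in the QKI shRNA line, against 8.02, 9.91 and 9.89 in the non-silencing shRNA line. The mean of the 8 markers was 5.10, 4.95 and 5.79 in the QKI shRNA line, against 6.52, 7.12 and 7.12. The mean of 7 progenitor markers was 7.96, 7.96 and 8.54 in the QKI shRNA line, against 8.59, 8.65 and 8.77, without overlap, and 1 of the 7, Olig1, was called lower. Of the other marker lists, 2 of 7 astrocyte markers were called higher and 2 lower, 1 of 8 neuronal and 1 of 6 Schwann cell markers were called higher, and no microglial or fibroblast marker was called. The part of cell state in the differences of the stress genes was not tested, and in RNA from whole cultures fewer cells of a kind and less RNA per cell cannot be told apart.

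**Figure D2:**
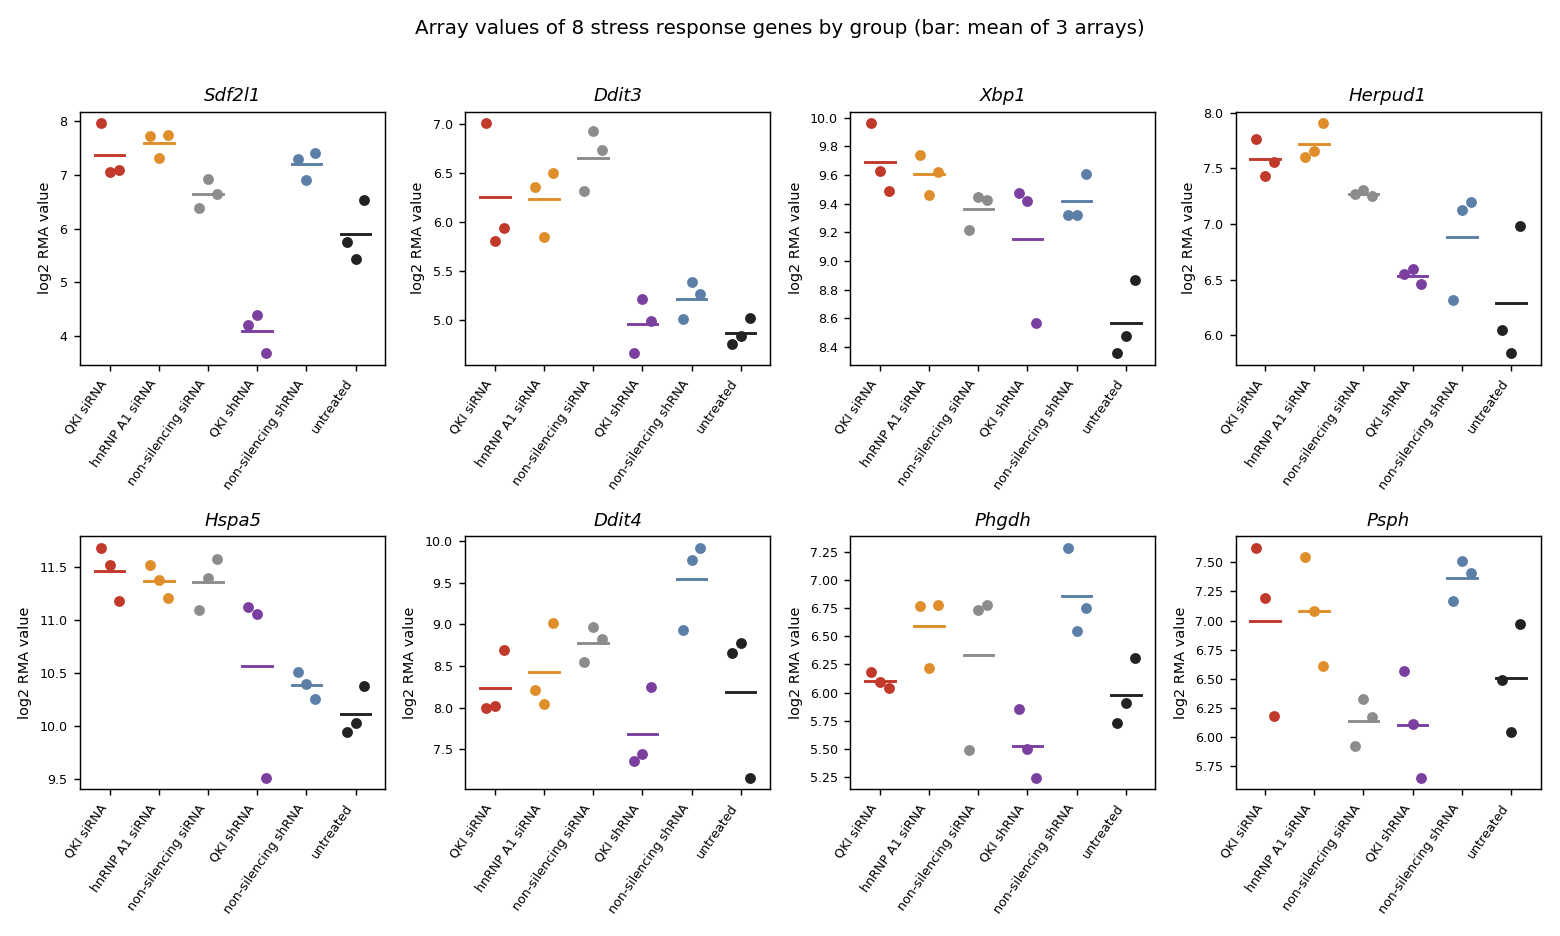
Log2 values of 8 genes on each array (points) with the mean of 3 arrays (bar), by group; the vertical scale differs between genes and does not start at 0. Sdf2l1 is lowest on the 3 QKI shRNA arrays (3.69 to 4.40), and Ddit3 is at 5.81 or above on all 9 siRNA arrays and at 5.38 or below on the 9 others.

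The transiently transfected cells were set against untreated cells. Ddit3 rose in all 3 siRNA groups, the non-silencing siRNA included. Xbp1, Sdf2l1 and Herpud1 rose with QKI siRNA, and Sdf2l1 and Herpud1 with hnRNP A1 siRNA. The called members were 4 of 37 with QKI siRNA (0.196% of clusters called higher), 3 of 37 with hnRNP A1 siRNA (0.201%) and 1 of 37 with non-silencing siRNA (0.0317%); none was called lower. Among the brighter clusters 0.360%, 0.402% and 0.0529% were called higher. The 3 comparisons share the untreated arrays. The median difference of the 37 genes was 0.70 with QKI siRNA, 0.68 with hnRNP A1 siRNA and 0.35 with non-silencing siRNA, against 0.12, 0.09 and 0.08 for all clusters.

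Ddit3 encodes CHOP, a transcription factor of the C/EBP family that is induced through ATF4. Ddit3 was 7.004, 5.81 and 5.94 in QKI siRNA cells, 6.36, 5.84 and 6.49 in hnRNP A1 siRNA cells and 6.32, 6.92 and 6.73 in non-silencing siRNA cells, against 4.75, 4.84 and 5.02 in untreated cells. Every siRNA array lay above every untreated array. The difference from untreated cells was 1.38 ± 0.27 with QKI siRNA (limma adjusted p = 0.0352) and 1.36 ± 0.27 with hnRNP A1 siRNA (adjusted p = 0.0464). With non-silencing siRNA it was 1.78 ± 0.27 (limma adjusted p = 0.0234), a 3.44-fold difference. All 5 probe sets of Ddit3 were higher in each of the siRNA groups than in untreated cells.

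Herpud1 encodes an ER membrane protein of the degradation machinery. Herpud1 was 7.76, 7.43 and 7.56 in QKI siRNA cells, 7.60, 7.66 and 7.90 in hnRNP A1 siRNA cells and 7.26, 7.30 and 7.25 in non-silencing siRNA cells, against 6.05, 5.84 and 6.98 in untreated cells. Untreated array 3 lay about 1 unit above its 2 partners and still below every siRNA array. The difference was 1.29 ± 0.25 with QKI siRNA (limma adjusted p = 0.0352) and 1.43 ± 0.25 with hnRNP A1 siRNA (adjusted p = 0.0211). With non-silencing siRNA it was 0.98 ± 0.25 (adjusted p = 0.155).

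Sdf2l1 was 7.96, 7.06 and 7.10 in QKI siRNA cells, 7.72, 7.31 and 7.75 in hnRNP A1 siRNA cells and 6.39, 6.93 and 6.64 in non-silencing siRNA cells, against the 5.76, 5.43 and 6.53 of untreated cells. Both knockdown groups lay above all untreated arrays, and non-silencing siRNA cells overlapped them. The difference was 1.47 ± 0.29 with QKI siRNA (limma adjusted p = 0.0371) and 1.69 ± 0.29 with hnRNP A1 siRNA (adjusted p = 0.0188), opposite in sign to the stable QKI knockdown. Xbp1, the transcription factor spliced by IRE1, was 9.96, 9.63 and 9.49 in QKI siRNA cells, 9.74, 9.46 and 9.62 in hnRNP A1 siRNA cells and 9.21, 9.45 and 9.43 in non-silencing siRNA cells, against 8.36, 8.48 and 8.87 in untreated cells. No siRNA array overlapped the untreated ones. The difference was 1.13 ± 0.21 with QKI siRNA (limma adjusted p = 0.0297) and 1.04 ± 0.21 with hnRNP A1 siRNA (adjusted p = 0.0517).

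Hspa5 was 11.69, 11.52 and 11.19 in QKI siRNA cells, 11.52, 11.38 and 11.21 in hnRNP A1 siRNA cells and 11.10, 11.40 and 11.58 in non-silencing siRNA cells, against 9.94, 10.02 and 10.38 in untreated cells. The groups did not overlap, and the differences of 1.35 ± 0.31, 1.26 ± 0.31 and 1.25 ± 0.31 missed the threshold (limma adjusted p = 0.0637, 0.0943 and 0.143). Atf4 was 10.04, 9.85 and 9.66 in QKI siRNA cells, 9.92, 9.85 and 9.62 in hnRNP A1 siRNA cells and 9.41, 9.52 and 9.41 in non-silencing siRNA cells, against 8.48, 8.44 and 9.34 in untreated cells. Its differences of 1.10, 1.05 and 0.70 (SE 0.33 each) were not called (limma adjusted p = 0.147, 0.178 and 0.491). Eif2ak3 was 7.22, 6.97 and 6.75 in QKI siRNA cells, 7.09, 6.72 and 7.08 in hnRNP A1 siRNA cells and 6.97, 6.92 and 7.28 in non-silencing siRNA cells, against 7.001, 6.90 and 7.15 in untreated cells. All 4 groups overlapped for Eif2ak3.

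Beyond the called genes, many members stood above untreated cells without overlap. Of the 37, 20 did so with QKI siRNA (15% of clusters), 21 with hnRNP A1 siRNA (13.5%) and 14 with non-silencing siRNA (15.7%); among the brighter clusters 11.6%, 13.0% and 10.1% did. Among the 13 chaperones and folding enzymes the counts were 11, 10 and 7, and among the 9 amino acid and one-carbon genes they were 0, 1 and 0. As a description chosen after the values were seen, all 9 siRNA arrays lay above all 9 other arrays for Ddit3, Calr, Pdia3 and Herpud1, 4 of 37 genes, where 0.164% of clusters did so. Calr encodes calreticulin, a lectin chaperone, and Pdia3 its partner disulfide isomerase. Calr lay between 11.27 and 11.71 on the siRNA arrays, against 10.17 to 11.002 on the others.

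These counts moved with single arrays. Without untreated array 3 and the array labelled QKI shRNA 3, 15 members were called higher with QKI siRNA (1.93% of clusters), 16 with hnRNP A1 siRNA (2.34%) and 6 with non-silencing siRNA (0.349%). In all 3 groups Ddit3, Xbp1, Hspa5, Manf, Calr and Herpud1 were then called. Hspa5 differed by 1.48 ± 0.17 with QKI siRNA, 1.39 ± 0.17 with hnRNP A1 siRNA and 1.38 ± 0.17 with non-silencing siRNA (limma adjusted p = 0.000389, 0.000697 and 0.00165). Atf4 was called with QKI siRNA (1.39 ± 0.28) and with hnRNP A1 siRNA (1.34 ± 0.28). Over all arrays, no member kept a call in these 3 comparisons when untreated array 1 or untreated array 2 was left out. Leaving out untreated array 3 alone gave 9, 6 and 2 members, and leaving out the array labelled QKI shRNA 3 alone gave 9, 9 and 2. Leaving out QKI siRNA array 2 gave 0 for QKI siRNA, leaving out hnRNP A1 siRNA array 1 gave 0 for hnRNP A1 siRNA, and leaving out non-silencing siRNA array 2 or 3 gave 0 for non-silencing siRNA. Leaving out hnRNP A1 siRNA array 1 or non-silencing siRNA array 3 gave 1 for QKI siRNA, and 4 other arrays gave 2; leaving out hnRNP A1 siRNA array 2 or 3 gave 1 for hnRNP A1 siRNA. Over the 18 omissions of 1 array, Ddit3 lost its call in 6 with QKI siRNA, 11 with hnRNP A1 siRNA and 4 with non-silencing siRNA. With each array centred on its median no member was called in any of the 3 comparisons.

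Markers of cell state were read in these groups too. The mean of the 8 differentiation markers was 5.67, 5.74 and 6.53 with QKI siRNA, 6.19, 6.41 and 7.29 with hnRNP A1 siRNA and 6.75, 7.13 and 7.10 with non-silencing siRNA, against 7.24, 7.27 and 6.99 in untreated cells. All QKI siRNA arrays lay below all untreated arrays, and hnRNP A1 siRNA and non-silencing siRNA arrays overlapped them. With each knockdown siRNA 1 of the 8 was called lower, and with non-silencing siRNA none. The mean of the 7 progenitor markers was 8.28, 8.19 and 8.33 with QKI siRNA, below the 9.11, 8.99 and 8.63 of untreated cells. The progenitor marker Ptprz1 was called lower with QKI siRNA (-1.04) and with hnRNP A1 siRNA (-0.91), and the astrocyte marker Slc1a3 with QKI siRNA (-1.68). Their part in the stress gene differences was not tested.

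The non-silencing shRNA line was also set against untreated cells. Xbp1 and Sdf2l1 rose, 2 of 37 genes, where 2.48% of clusters and 4.73% of the brighter clusters were called higher. Xbp1 was 9.32, 9.32 and 9.60 in the non-silencing shRNA line, and its difference of 0.85 ± 0.21 (limma adjusted p = 0.0392) rested on groups that did not overlap. Ddit3 in that line overlapped untreated cells, with a difference of 0.35 ± 0.27 (adjusted p = 0.639). Without overlap, 8 members stood higher (14.8% of clusters, 19.2% of the brighter ones). Without the 2 arrays that stood apart, Atf4, Shmt2, Xbp1, Sdf2l1, Manf and Herpud1 were called higher (4.82% of clusters), and in the QKI shRNA line Slc7a11, Xbp1, Hspa5 and Manf were called higher than untreated cells (3.56%) and Ddit4 and Sdf2l1 lower (5.09%). Over all arrays neither call in the non-silencing shRNA line held without untreated array 1, untreated array 2 or non-silencing shRNA array 1 or 3 (adjusted p for Sdf2l1 0.101, 0.119, 0.0664 and 0.1003), and the count was 1 without array 2 of QKI siRNA, non-silencing siRNA or non-silencing shRNA, without hnRNP A1 siRNA array 1 or without non-silencing siRNA array 3. In the QKI shRNA line, leaving out the array labelled QKI shRNA 3 alone gave 4 called members.

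The siRNA knockdowns were then set against their own control, the non-silencing siRNA. No member was called for either QKI siRNA (0% of clusters) or hnRNP A1 siRNA (0.00529%, 1 cluster). Of the 37, 8 and 9 members had an unadjusted limma p under 0.05, where 1721 and 1331 of the 18901 clusters did. Measured differences were mostly above 0: 32 of 37 genes in each comparison, with a median of 0.39 for QKI siRNA and 0.38 for hnRNP A1 siRNA, against 0.04 and 0.00 for all clusters. The 2 comparisons share the non-silencing siRNA arrays. Without overlap, 13 members stood above the control with QKI siRNA (7.41% of clusters) and 18 with hnRNP A1 siRNA (8.69%), and none stood below it. Among the brighter clusters 10.3% and 14.88% stood above it.

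The amino acid and one-carbon genes had the largest of these differences by role. Their median was 0.86 with QKI siRNA and 0.94 with hnRNP A1 siRNA, against 0.32 and 0.31 for the chaperones. Asns, which encodes asparagine synthetase, differed by 0.87 ± 0.42 with QKI siRNA and by 1.31 ± 0.42 with hnRNP A1 siRNA (limma adjusted p = 0.56 and 0.503). Psat1, which encodes the second enzyme of serine synthesis, differed by 1.02 ± 0.46 and 1.40 ± 0.46 (adjusted p = 0.537 and 0.503). Sdf2l1 had the largest difference among chaperones, 0.72 ± 0.29 with QKI siRNA and 0.94 ± 0.29 with hnRNP A1 siRNA. Ddit3 was 1 of the 5 members below 0 in each comparison, with -0.40 ± 0.27 and -0.42 ± 0.27 (limma adjusted p = 0.71 and 0.838). Ddit4 was another, with means of 8.23 and 8.43 against 8.78 in the control, and with QKI siRNA it was the lowest member (-0.54). Hspa5 differed by 0.11 ± 0.31 and 0.01 ± 0.31, and Eif2ak3 by -0.08 ± 0.18 and -0.09 ± 0.18.

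QKI siRNA and hnRNP A1 siRNA were compared with each other directly. No member was called (0% of clusters) and none had an unadjusted limma p under 0.05, where 603 of the 18901 clusters did. The 37 differences ran from -0.48 for Phgdh to 0.24 for Hsp90b1, with a median of 0.01. At an SE of 0.12 to 0.78 per gene this does not show that the groups were alike.

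**Figure D3:**
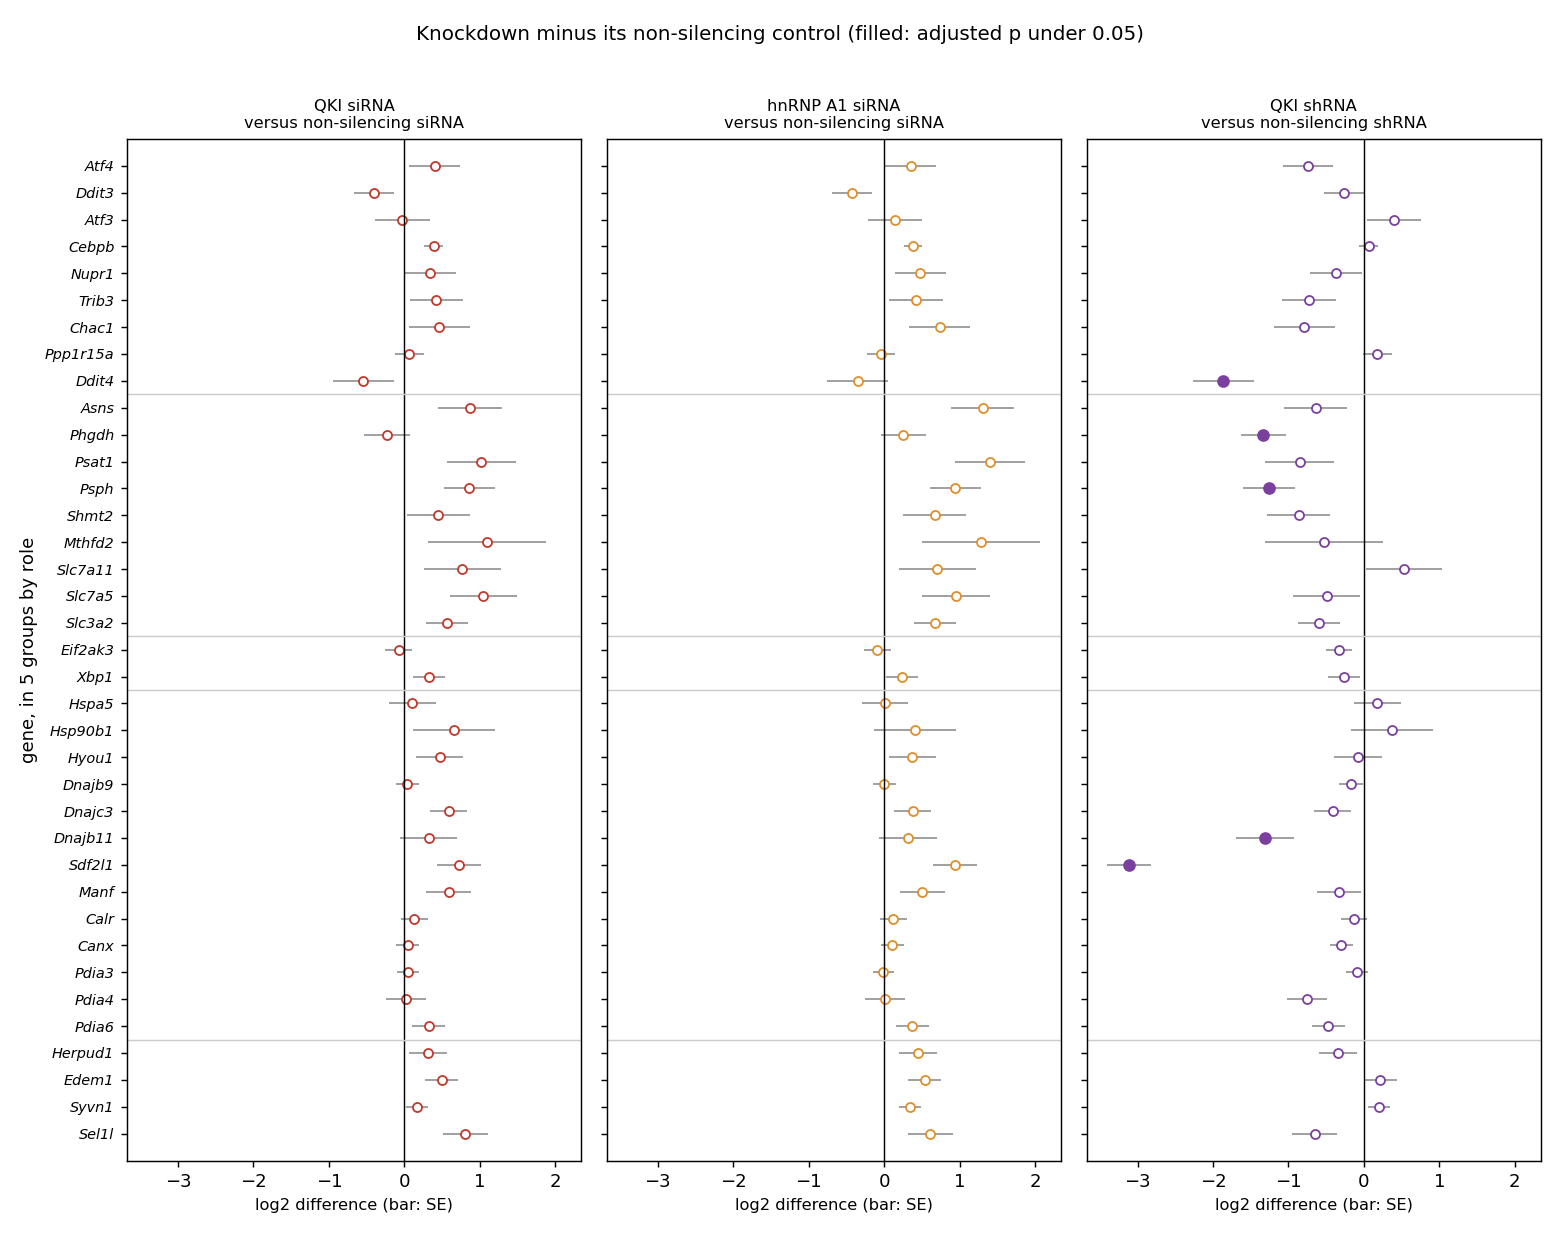
Log2 difference of each of the 37 genes between a knockdown and its own non-silencing control (point) with its SE (bar); filled points have an adjusted p under 0.05. With either siRNA most points lie right of 0 and none is filled, and with QKI shRNA 5 genes are filled, led by Sdf2l1 at -3.11.

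Transient and stable QKI knockdown were compared by the difference of their effects, each against its own control. Qki RNA was not lowered alike in them. It was 9.67 to 10.02 with QKI siRNA against 11.14 to 11.47 in its control, without overlap. In the QKI shRNA line it was 10.35 to 11.14 against 10.90 to 11.01, with overlap. That difference was called for 2 of 37 genes, where 3.42% of clusters were called higher: Sdf2l1 (3.83 ± 0.41, limma adjusted p = 0.000217) and Psph (2.12 ± 0.48, adjusted p = 0.0189). Sdf2l1 was 0.72 above its control with QKI siRNA and 3.11 below it with QKI shRNA, and Psph was 0.86 above and 1.26 below. The median over the 37 genes was 0.77, against 0.04 for all clusters. The call of Psph was lost without QKI siRNA array 2 (adjusted p = 0.0522) or non-silencing siRNA array 1 (adjusted p = 0.0537), and without non-silencing shRNA array 1 the count was 4.

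The controls themselves differed. In the non-silencing shRNA line Psat1 was higher than in non-silencing siRNA cells, 1 of 37 genes (3.53% of clusters), and Ddit3 and Atf3 were lower, 2 of 37 (1.19%). Among the brighter clusters 6.85% were called higher and 1.97% lower. With quantile normalization 2.38% of clusters were higher and 2.50% lower, with 0 members higher and 7 lower. Ddit3 was 5.01, 5.38 and 5.26 in the non-silencing shRNA line, against the 6.32 to 6.92 of non-silencing siRNA cells, and differed by -1.44 ± 0.27 (limma adjusted p = 0.00756). Atf3, a stress-induced factor of the ATF family, was 4.02, 4.27 and 3.87 in the non-silencing shRNA line, against 5.98, 5.27 and 5.28 in non-silencing siRNA cells (-1.45 ± 0.36, adjusted p = 0.0313). In the non-silencing shRNA line that was near the arrays' median signal. Psat1 was 10.09, 10.11 and 10.32, against 8.24, 8.35 and 8.81 (1.70 ± 0.46, adjusted p = 0.0443). None of these groups overlapped. The call of Ddit3 held with any single array left out, and 12 such settings for Psat1 and 6 for Atf3 lost theirs. The count was 1 without any single array of either control group except non-silencing shRNA array 1, and 7 without the array labelled QKI shRNA 3. Without non-silencing shRNA array 1 it was 2, namely Ddit3 and a member that was not called over all arrays. Atf3 and Psat1 then lost their calls (limma adjusted p = 0.0972 and 0.110).

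The amino acid and one-carbon genes varied from array to array within groups. Their median within-group SD was 0.577 over the 9 genes, against 0.356 for the chaperones, 0.216 for all clusters and 0.269 for clusters at or above the median mean. The mean of the 9 genes was 8.48, 8.22 and 6.89 in the QKI shRNA line and 7.51, 7.56 and 8.56 in untreated cells. In QKI siRNA cells it was 8.86, 8.44 and 7.78, in hnRNP A1 siRNA cells 8.96, 8.55 and 8.16, in non-silencing siRNA cells 7.43, 7.74 and 7.76, and in the non-silencing shRNA line 8.28, 8.59 and 8.73. The ranges inside the QKI shRNA line, the QKI siRNA group and the untreated group each exceeded the largest difference between any 2 group means.

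Mthfd2, which encodes a mitochondrial enzyme of one-carbon metabolism, was the most variable of the 37, with a within-group SD of 1.08. Mthfd2 was 9.26, 9.20 and 6.05 in the QKI shRNA line, against 8.15, 8.91 and 9.02 in the non-silencing shRNA line. Untreated cells had 7.16, 7.28 and 9.09. The same 2 arrays stood apart for most genes of the group: all 9 genes were lowest on the array labelled QKI shRNA 3 within its line, and all 9 were highest on array 3 among the untreated arrays.

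**Figure D4:**
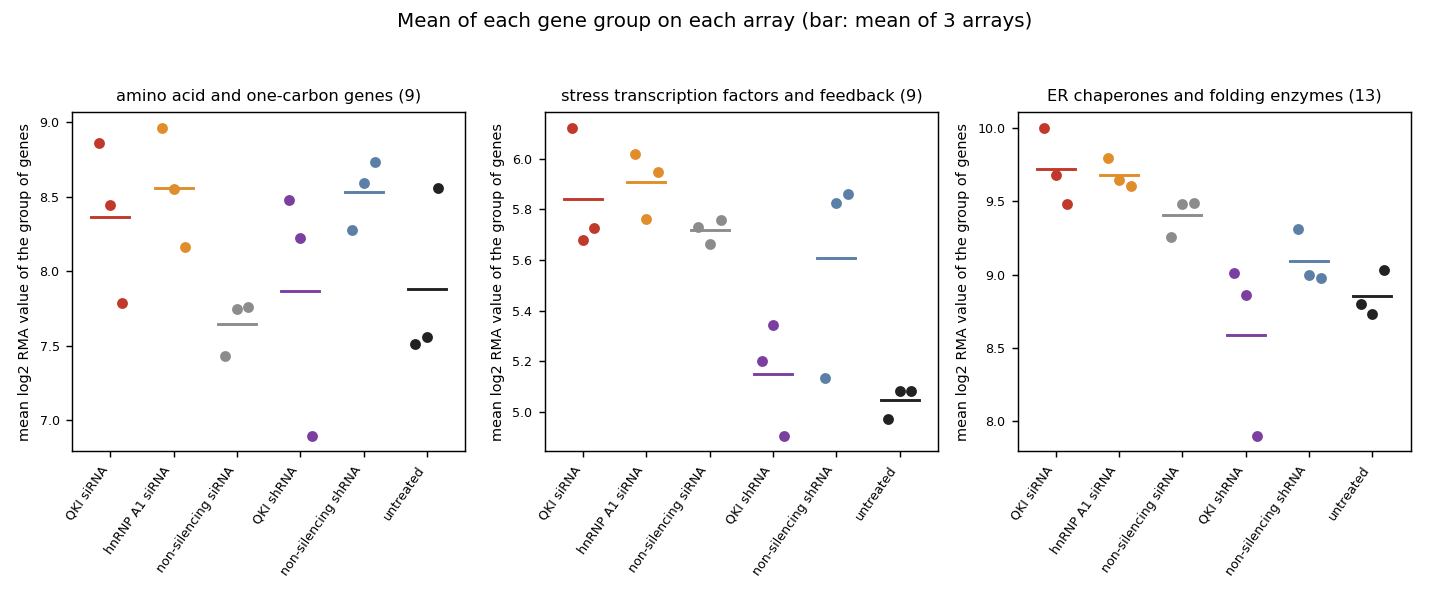
Mean log2 value over the genes of a role on each array (points) with the mean of 3 arrays (bar), by group; the vertical scales differ and do not start at 0. Amino acid genes spread widely within the QKI shRNA line (6.89 to 8.48), and chaperones of all siRNA arrays lie at 9.26 or above, against 7.90 to 9.31 on the other arrays.

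Other genes of these pathways were read as lists beside the 37. In the stable QKI knockdown, 3 of 22 other ATF4-type genes fell, where 6.90% of all clusters and 13.4% of the brighter ones were called lower, led by Got1 (-1.21 ± 0.21), the cytosolic aspartate aminotransferase. Of 19 genes of ER translocation and glycosylation 3 fell, led by Ssr4 (-1.30 ± 0.21), a subunit of the translocon-associated complex. Of 16 other folding enzymes 4 fell, led by Selenof (-0.78 ± 0.14). Of 12 genes listed beside ER-associated degradation, not all of them parts of its machinery, 5 fell. The largest changes there were those of Tmbim6 (-0.86 ± 0.14) and Faf2 (-0.86 ± 0.21). Of 20 other stress kinase and eIF2 genes 4 fell, led by Eif2b2 (-1.86 ± 0.37), a subunit of the eIF2 exchange factor. Of 9 mitochondrial stress genes 3 fell and Hspa9 rose (1.00 ± 0.21). None of 12 aminoacyl-tRNA synthetases and none of 10 cytosolic heat shock genes was called.

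In the siRNA knockdowns against non-silencing siRNA no gene of these 8 lists was called. In the non-silencing shRNA line against untreated cells, 10 of the 120 measured genes of the 8 lists rose and none fell, where 2.48% of all clusters and 4.73% of the brighter ones were called higher. Got1 rose there by 1.23 ± 0.21 and Ssr4 by 1.21 ± 0.21. As with Sdf2l1, the control line therefore lay above untreated cells for both genes. Unlike Sdf2l1, neither was called when the QKI shRNA arrays were set against untreated cells, where 0 of the 120 genes rose or fell. Got1 was 8.60, 8.50 and 8.49 on the QKI shRNA arrays, against 8.37, 8.29 and 8.87 in untreated cells. Ssr4 was 7.17, 7.22 and 6.72, against 6.65, 7.13 and 7.59, and for both genes the groups overlapped. The calls in these lists for the stable knockdown were thus made against the non-silencing shRNA line only. The comparisons that include the non-silencing shRNA line share its arrays.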

How the data were processed

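RNA from 18 cultures was measured on Affymetrix rat exon arrays, and each array was deposited both at the gene level and at the exon level. The deposited values are on a log2 scale, and the submitters' processing notes name RMA and Partek without versions; the genome build behind the clusters is not given in the sources used here. Genes were named through the platform annotation, from clusters with a single symbol, updated through the RefSeq gene table, and the cluster with the highest mean was kept per gene. A linear model with 1 mean per group was fitted to all 18901 clusters with limma 3.58.1 in R 4.3.3 (12 residual degrees of freedom), p-values were adjusted by Benjamini-Hochberg over all clusters, and the threshold was 0.05. The fit was tested on simulated data.

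The 41 genes and the lists of other pathway genes and cell type markers were chosen with earlier results of these data known. Values on every array were to be given for members called in any pairwise comparison and for the sensors, Atf4, Ddit3 and Hspa5 whatever their result; of each other pathway list at most 4 called genes, those with the largest change, were to be named. Samples were grouped by their labels, which call the arrays of a group biological replicates. Deviations from group means correlated between same-numbered arrays by over 0.1 in every pair for QKI shRNA with non-silencing shRNA (0.14 to 0.25) and for QKI siRNA with hnRNP A1 siRNA (0.32 to 0.53), and in no other comparison. The number of arrays limits the precision. Alternatives were other normalizations, filters, variance models, the replicate number as a block, exon-level medians, another control, and leaving out each array; leaving out 2 arrays together, the block with the compared arrays alone, the share among brighter clusters, and the description of the 9 siRNA arrays against the 9 others were chosen after seeing the data. Promoter sequences are from RefSeq, assembly GRCr8.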

Additional observations from a re-analysis of the deposited data

Results flagged for a closer look

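The log2 change of Sdf2l1 differed by 3.83 between QKI siRNA cells and the QKI shRNA line, each set against its own control. Every QKI siRNA array lay above its controls while every QKI shRNA array lay below its own. The QKI shRNA was in a single line, so knockdown and line cannot be told apart there. The array labelled QKI shRNA 3 had Qki at 11.14, above its controls, and the lowest Sdf2l1, 3.69. For Psph the difference of the effects was 2.12; its QKI siRNA arrays overlapped their controls, and its QKI shRNA arrays lay below theirs. Both were picked out by the test of the difference itself (limma, adjusted over all clusters). Among the controls, Ddit3 differed between the non-silencing shRNA line and non-silencing siRNA cells by -1.44, Atf3 by -1.45 and Psat1 by 1.70. These 3 genes were picked out because cells that received different non-silencing controls were not alike.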

How the results depend on the processing

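Of 21 gene differences called in the main analysis, all 21 kept their direction in every alternative, 3 were called in every one (Sdf2l1 in QKI shRNA against non-silencing shRNA, Ddit3 between the controls, and Sdf2l1 in the difference of the QKI effects), and 435 of 577 alternative values were called. For non-silencing siRNA, non-silencing shRNA, QKI siRNA, QKI shRNA and hnRNP A1 siRNA against untreated cells the counts were 1, 2, 4, 1 and 3. With the compared arrays alone they were 3, 0, 0, 0 and 0, with each array centred on its median 0, 0, 0, 1 and 0, with quantile normalization 1, 2, 9, 1 and 6, with array weights 16, 19, 26, 12 and 28, with medians of exon-level probe sets 1, 1, 3, 0 and 1, and without untreated array 3 and the array labelled QKI shRNA 3 they were 6, 6, 15, 6 and 16. An intensity trend with a robust prior gave 1 for non-silencing shRNA. The replicate block changed the count to 7 for QKI siRNA and 1 for non-silencing shRNA against untreated cells and changed no other count by over 1.5 times; in the paired comparisons it gave 5 for QKI shRNA and 0 for QKI siRNA against hnRNP A1 siRNA, and 4 and 0 with the compared arrays alone. Between the controls the count of 3 became 7 with the compared arrays alone, 7 with quantile normalization, 1 with median centring, 18 with array weights and 7 without the 2 arrays. Array weights also gave 13 for QKI siRNA and 7 for hnRNP A1 siRNA against non-silencing siRNA, 11 for QKI shRNA against non-silencing shRNA, 3 for QKI siRNA against hnRNP A1 siRNA, 12 for the difference of the QKI effects and 35 for the 6 groups together; median centring gave 1 and 6 for the last 2. With untreated cells as the control the knockdowns gave 4 for QKI siRNA, 1 for QKI shRNA and 3 for hnRNP A1 siRNA. The causes of these moves were not tested. The array weights ran from 0.315 for the array labelled QKI shRNA 3 to 6.63 for QKI siRNA array 2, whose partners had 0.38 and 0.37. Except where given above, the shares of all clusters called in these settings are not given here. The counts are therefore no result about the members. With single arrays left out the counts ran from 0 to 0 for either siRNA against non-silencing siRNA and for QKI siRNA against hnRNP A1 siRNA, 3 to 6 for QKI shRNA, 0 to 2, 0 to 4, 0 to 9, 1 to 4 and 0 to 9 in the 5 comparisons with untreated cells in the order above, 1 to 7 between the controls, 1 to 4 for the difference of the QKI effects and 11 to 18 for the 6 groups. The differences that turned their sign were not called in the main analysis. With quantile normalization Hspa5 with hnRNP A1 siRNA was -0.13, and with median centring Eif2ak3 in non-silencing siRNA against untreated cells was -0.079. Against untreated cells in place of the non-silencing control, Ddit3 was 1.38 with QKI siRNA, 1.36 with hnRNP A1 siRNA and 0.084 with QKI shRNA, and with QKI shRNA Atf4 was 0.35, Eif2ak3 0.053 and Xbp1 0.59. Without the 2 arrays Xbp1 with QKI shRNA was 0.028. With single arrays left out, Hspa5 ran from -0.025 to 0.24 with QKI siRNA, from -0.12 to 0.12 with hnRNP A1 siRNA and from -0.10 to 0.70 with QKI shRNA. In the same way Eif2ak3 ran from -0.20 to 0.036 with QKI siRNA, from -0.16 to 0.032 with hnRNP A1 siRNA and from -0.0689 to 0.11 in non-silencing siRNA against untreated cells, and Xbp1 from -0.42 to 0.028 with QKI shRNA. The median of all clusters in QKI siRNA against untreated cells was 0.12, and 0.01 with quantile normalization and -0.04 with median centring. Each measured gene had a single cluster, so the alternative of other clusters of a gene gave no value.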
